A study of Mus musculus with 8 samples.

Results

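The unfolded protein response and endoplasmic reticulum (ER) chaperone genes described here are 41 genes, picked by name as known genes of ER protein folding and its stress response, of 55487 genes in the transcript tables. The level of a gene is the sum of the TPM values (a share of all transcripts in a library, corrected for transcript length) of its annotated transcripts. They were followed in 2 cell populations sorted from the bone marrow of C57BL/6J mice. Basophil precursors (pre-Baso) were sorted as lineage-negative, CD34-negative, ckit-negative and CD200R3-positive cells with high binding of MAR1, the antibody to the alpha chain of the IgE receptor, and basophils as cells with the same markers and intermediate MAR1 binding. Each population came from wild-type littermates, called control here, and from mice described as Nfil3-depleted through a floxed Nfil3 allele, called deficient here. Each of the 4 groups had 2 libraries, which the series calls biological duplicates. Neither the Cre driver nor the sex, age or pooling of the mice is given in the labels, and all comparisons of genotype are comparisons of these mice. The comparisons ask how expression differs between genotypes and between the sorted populations.

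The ER folds and modifies proteins bound for secretion, for the cell surface and for granules. When unfolded proteins accumulate there, the sensors IRE1 (encoded by Ern1), PERK (Eif2ak3) and ATF6 signal to the nucleus: IRE1 splices Xbp1 mRNA, PERK slows translation and favours translation of ATF4 mRNA, and ATF6 is cut to release a transcription factor. XBP1 and ATF6 raise chaperones, disulfide enzymes and the degradation machinery, and ATF4 raises amino acid and stress genes including Ddit3, which encodes CHOP. Basophils and their precursors make large amounts of granule proteases that pass through the ER. Signalling by these sensors occurs at the level of protein, splicing and translation, so mRNA levels show only part of it.

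A promoter element and a stretch of Xbp1 mRNA carry much of the known control of these genes, and they are shown first. The ER stress element, bound by ATF6 with the factor NF-Y, has the letters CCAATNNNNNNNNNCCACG. It was searched for on both strands in the RefSeq promoter windows of GRCm38.p6, which reach from 250 bases before to 50 bases after each gene's start. Of 32851 windows, 39 (0.119%) held it. Of the 34 member genes that had a window, 9 held it: Hspa5, Hsp90b1, Calr, Canx, Dnajc3, Pdia6, Creld2, Syvn1 and Derl3. Members were chosen as known genes of this response, so this share describes the choice and is no test. Below, the element is in capitals with its flanks in lower case, 5′ to 3′ on the strand that reads the element, first for the genes that were lower in control basophils and then for 2 that were not called.
Calr, chr8:84847055-84847113, plus strand: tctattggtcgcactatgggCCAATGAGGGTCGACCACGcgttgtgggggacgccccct
Canx, chr11:50325780-50325838, minus strand: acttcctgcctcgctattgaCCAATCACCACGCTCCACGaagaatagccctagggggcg
Dnajc3, chr14:118937807-118937865, plus strand: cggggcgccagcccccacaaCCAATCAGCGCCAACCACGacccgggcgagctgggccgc
Pdia6, chr12:17266471-17266529, plus strand: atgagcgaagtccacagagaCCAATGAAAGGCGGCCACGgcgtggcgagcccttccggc
Creld2, chr15:88819500-88819558, minus strand: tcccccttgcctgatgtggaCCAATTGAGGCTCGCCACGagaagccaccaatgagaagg
Derl3, chr10:75893222-75893280, minus strand: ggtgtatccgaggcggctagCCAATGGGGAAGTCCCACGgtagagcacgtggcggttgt
Hsp90b1, chr10:86705618-86705676, minus strand: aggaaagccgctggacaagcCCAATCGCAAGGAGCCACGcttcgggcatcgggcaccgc
Syvn1, chr19:6046512-6046570, plus strand: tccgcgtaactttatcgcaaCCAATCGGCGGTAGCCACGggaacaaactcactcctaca

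In Hspa5 the element itself, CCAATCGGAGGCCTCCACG, lies at chr2:34772025-34772043 on the plus strand, -65 to -47 bases from the RefSeq start. That stretch is inside the first exon of a longer annotated Hspa5 transcript. Hsp90b1 has 2 elements, and the one shown is the farther from its start. The related element II, ATTGGNCCACG, was in 12 windows (0.0365%), among them those of Dnajb11 and Herpud1. The core TGACGTGG of the unfolded protein response element was in 222 windows (0.676%) and in 0 member windows. The letters TGATGNAAT, which ATF4 and CHOP can bind with C/EBP factors, were in 317 windows (0.965%) and in 0 member windows. TTANGTAA, a form of the site that NFIL3 binds, was in 763 windows (2.32%) and in 1 member window, that of Sec61b, from -137 to -130 bases from the start. A match is a run of letters and no measured binding site.

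The second sequence is the part of Xbp1 mRNA that IRE1 removes. The loop letters CNGCAGC occur 2 times in exon 4 of Xbp1 on GRCm38. The 26 bases between the cuts, at chr11:5524279-5524304 on the plus strand, are in capitals in the first line, and the second line is the same stretch, chr11:5524255-5524328, after their removal.
Xbp1 unspliced: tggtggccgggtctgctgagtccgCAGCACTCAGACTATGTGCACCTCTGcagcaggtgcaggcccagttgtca
Xbp1 spliced: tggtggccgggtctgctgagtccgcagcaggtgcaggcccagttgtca

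Reads of this junction were not counted in the tables. One annotated Xbp1 transcript, ENSMUST00000239150, also lacks 26 bases of exon 4, but from 5524270 to 5524295, so its gap starts 9 bases before the bases that IRE1 removes. It was listed at 0 TPM in all 8 libraries. The tables therefore give the summed Xbp1 mRNA and no measure of its splicing by IRE1.

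The libraries had 271.7 to 398.0 megabases of sequence assigned to transcripts, and protein-coding genes took 18.7% to 22.4% of the TPM, the remainder lying mostly in genes annotated as small RNAs, so a given TPM here marks a larger part of the mRNA pool than in a library of mRNA alone. Nfil3, the targeted gene, was at 6.61 to 22.5 TPM in the 4 control libraries and at 0 to 1.32 TPM in the 4 deficient libraries. All 14 basophil markers reached 1 TPM in a library, and the marker Mcpt8, a granule protease, was at 969 to 7888 TPM in control and 1.98 to 6.04 TPM in deficient libraries. Deficient libraries thus differed from controls at Mcpt8 as well as at Nfil3, and since the labels do not name the Cre allele, loss of Nfil3 and an effect of that allele cannot be told apart in any comparison of genotypes. Markers of other cells were also present. The first control basophil library stood apart: its 9 eosinophil markers summed to 2665 TPM, against 15.8 to 193.6 in the other 7 libraries. Its 16 B and plasma cell markers summed to 219.5 TPM, against 15.7 to 77.0. Neutrophil markers summed to 799 to 1240 TPM in pre-Baso and 1364 to 2548 TPM in basophil libraries, and monocyte and macrophage markers to 177 to 279.7 and 352.8 to 883 TPM. In basophils both sums were higher in the first library of each genotype. Neutrophil markers were at 2548 (control) and 2255 TPM (deficient) there, against 1453 and 1364 TPM in the second libraries. Monocyte and macrophage markers were at 883 and 808.7 TPM, against 352.8 and 409.3 TPM. The 9 erythroid markers, led by Hbb-bs, Hba-a2 and Hba-a1, summed to 30.1 to 42.6 TPM in 3 pre-Baso libraries, 114.6 TPM in the second deficient pre-Baso library and 129 to 168 TPM in basophil libraries. From pre-Baso to basophils in controls 7 of 11 tested neutrophil, 4 of 10 monocyte and macrophage (3 of 6 without those that the filter on low values admitted through basophils alone) and 4 of 6 erythroid markers rose, against 12.6% of all genes tested. The part of these cells in the changes of ER genes was not tested. The plasma cell marker Mzb1 was at 0 in all 8 libraries, and 8 T and NK cell markers summed to at most 1.36 TPM. In bulk libraries like these, fewer cells of a type and less RNA per cell cannot be told apart.

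Summed over all 41 genes, the level was 1369 and 1636 TPM in control pre-Baso, 1461 and 1299 in deficient pre-Baso, 902 and 816 in control basophils and 850.0 and 1043 in deficient basophils. All 4 basophil libraries were below all 4 pre-Baso libraries. As a share of protein-coding TPM the sum was 0.733% and 0.732% in control pre-Baso, 0.713% and 0.681% in deficient pre-Baso, 0.428% and 0.415% in control basophils and 0.448% and 0.524% in deficient basophils. The mean control sum was in pre-Baso 1.75 times that in basophils, and the mean deficient sum 1.46 times. The groups of genes differed in this. The 9 ER chaperones summed to 408 and 479 TPM in control pre-Baso, 418 and 388 in deficient pre-Baso, 189.7 and 177 in control basophils and 199 and 267 in deficient basophils. The 5 disulfide enzymes summed to 239.8 and 265 TPM in control pre-Baso, 218 and 231 in deficient pre-Baso, 122 and 107 in control basophils and 118 and 160.5 in deficient basophils. Both sums were higher in every pre-Baso library than in any basophil library. The 3 transcription factors summed to 69.1 and 80.5 TPM in control pre-Baso, 67.9 and 52.7 in deficient pre-Baso, 79.2 and 68.1 in control basophils and 70.7 and 71.7 in deficient basophils. Those values overlapped between the populations, and the sums of the 3 stress sensors, 3.90 and 5.78 TPM in control pre-Baso, 4.02 and 4.37 in deficient pre-Baso, 6.00 and 6.36 in control basophils and 6.31 and 6.74 in deficient basophils, were highest in basophils.

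**Figure D1:**
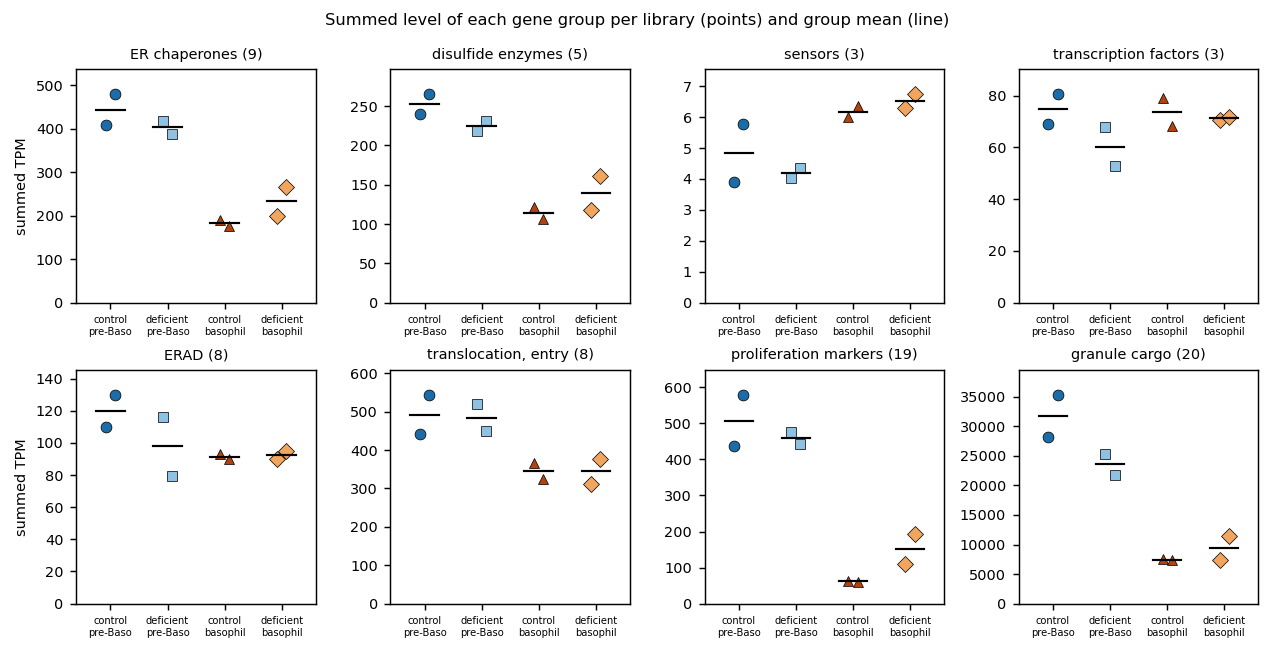
Summed TPM (vertical axes, from 0) of 6 groups of unfolded protein response genes, proliferation markers and granule cargo genes in the 8 libraries; points are libraries and lines are means of 2. Chaperones, disulfide enzymes, translocation genes, proliferation markers and cargo are lower in all 4 basophil libraries, while the transcription factors overlap between populations.

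Among single genes Sec61b, a subunit of the protein channel into the ER, had the highest mean over the 8 libraries (169.8 TPM), followed by the chaperone Hsp90b1 (102.2 TPM) and the disulfide isomerase P4hb (65.8 TPM). The sensors were low, with means of 2.32 TPM for Atf6, 1.99 TPM for Ern1 and 1.13 TPM for Eif2ak3. The ATF4 and CHOP targets Trib3 (at most 0.317 TPM) and Asns (listed at 0 in 6 libraries and at most 0.882 TPM) did not reach the level of 1 TPM in 2 libraries that was needed for testing. The other 39 members were tested, and a change is given as a difference of log2(TPM + 1), which understates changes of genes near 1 TPM. Derl3, an ERAD channel subunit induced in secretory cells, passed this filter through the pre-Baso libraries alone. Passing through a single population leans the selection towards a lower level in the other, so Derl3 is no support for a fall.

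**Figure D2:**
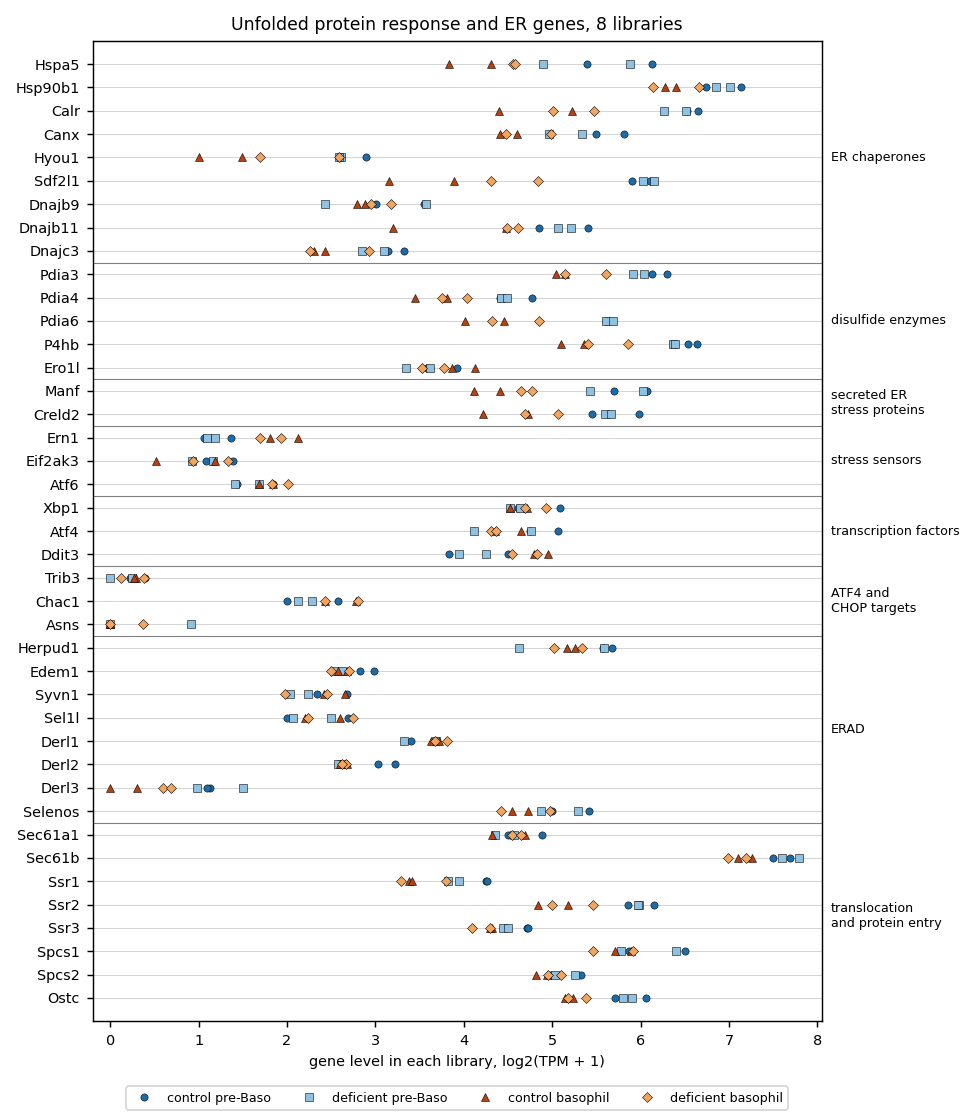
Level of each of the 41 genes in each of the 8 libraries as log2(TPM + 1) (horizontal axis), grouped by role, 1 symbol per library. Most chaperones, disulfide enzymes and secreted ER stress proteins have the basophil symbols to the left of the pre-Baso symbols, whereas Ern1 and Ddit3 have them to the right.

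From pre-Baso to basophils of control mice, most of the ER folding machinery was lower. Called at an adjusted p under 0.05 (limma, Benjamini-Hochberg over 12511 genes), 17 of 39 members fell, against 10.0% of all genes tested, and 1 rose, against 12.6%. The 17 were 7 of 9 chaperones, 4 of 5 disulfide enzymes, both secreted ER stress proteins, 1 of 8 ERAD genes and 3 of 8 genes of translocation and protein entry. Without Derl3, for the reason given, 16 of 38 fell (median -0.46), among them 0 of 7 ERAD genes. The median log2 change of the 39 members was -0.49, beside 0.08 for all genes tested. In deficient mice 6 of 39 fell, against 4.11% of all genes, and 0 rose, against 6.79%. There the median was -0.37, beside 0.10 for all genes. Without regard to genotype, all 4 basophil libraries were below all 4 pre-Baso libraries for 18 of 39 members, against 13.1% of all genes tested. The 18 include Derl3, which for the reason given is no support for a fall. For 2 members, Ern1 and Ddit3, all 4 basophil libraries were above all 4 pre-Baso libraries, against 21.3% of all genes tested.

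These counts rest on 2 libraries per group. Without the second control pre-Baso library 7 members fell in controls, and without any 1 of the other 3 control libraries 12 did. That includes the first control basophil library with its eosinophil markers, without which the control median was -0.54. In deficient mice 0 members fell without the first pre-Baso library, 1 without the second, 0 without the first basophil library and 3 without the second. Each of the 6 calls in deficient mice ended in 4 to 10 of 18 alternatives.

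Proliferation markers and the summed level of granule cargo genes were lower in basophils too. The 19 proliferation markers, led by Birc5, Top2a and Rrm2, summed to 436 and 578 TPM in control pre-Baso, 477 and 444 in deficient pre-Baso, 63.2 and 60.6 in control basophils and 109 and 193 in deficient basophils. Each of the 19 was lower in all 4 basophil than in all 4 pre-Baso libraries, against 13.1% of all genes tested. In controls 19 of 19 fell (median log2 change -2.47), against 10.0% of all genes. Bub1 and Cenpe reached 1 TPM in 2 libraries only through pre-Baso, as Derl3 did, and without them 17 of 17 fell. The 20 granule cargo genes, led by Prss34, Mcpt8 and Ctsg, summed to 28270 and 35260 TPM in control pre-Baso, 25380 and 21760 in deficient pre-Baso, 7536 and 7332 in control basophils and 7310 and 11410 in deficient basophils. These sums were also lower in every basophil library than in any pre-Baso library, but single genes of the list went both ways. Of 18 tested in controls, 6 fell, against 10.0% of all genes tested, and 6 rose, against 12.6%, with a median change of -0.16. The 6 that fell were the proteases Mcpt8, Prss34, Cpa3 and Ctsg, the peroxidase Mpo and the granule proteoglycan Srgn. The 6 that rose were Hdc, encoding the enzyme that makes histamine, and the cytokine genes Il4, Il13, Il6, Ccl3 and Ccl4, so no protease was called higher. All but Prss34, Mcpt8 and Ctsg were named after their values were seen. Prg2, a cargo gene that is also an eosinophil marker, was at 2354 TPM in the first control basophil library and at 18.9 to 152 TPM in the other basophil libraries. Without Prg2 and Mcpt8, which were chosen after seeing the data, the sums were 21940 and 27340 TPM in control pre-Baso, 25350 and 21740 in deficient pre-Baso, 4212 and 5913 in control basophils and 7155 and 11390 in deficient basophils. The part of proliferation and cargo in the fall of ER genes was not tested.

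Hspa5 encodes BiP, the ER chaperone that binds unfolded chains and holds the 3 sensors inactive. Hspa5 (chr2:34771970-34777547 in mm10, as for the coordinates of genes given from here on) was at 41.1 and 68.9 TPM in control pre-Baso, 57.6 and 28.7 in deficient pre-Baso, 18.8 and 13.2 in control basophils and 22.6 and 22.96 in deficient basophils. The 4 basophil libraries lay below the 4 pre-Baso libraries, but the replicates of deficient pre-Baso were far apart, and the lower one was the library with the higher erythroid markers. From pre-Baso to basophils its log2 change was -1.69 ± 0.35 (SE; adjusted p = 0.0109) in controls and -0.81 ± 0.35 (adjusted p = 0.17) in deficient mice. The control call ended without the second control pre-Baso library (log2 change -1.33, adjusted p = 0.0714).

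Sdf2l1 (chr16:17130138-17132383), a luminal protein that works with BiP and its DnaJ partners, had the largest fall of the members in both genotypes. Its level was 59.0 and 67.6 TPM in control pre-Baso, 69.9 and 64.1 in deficient pre-Baso, 13.8 and 7.90 in control basophils and 18.8 and 27.7 in deficient basophils. All pre-Baso libraries were between 59.0 and 69.9 TPM and all basophil libraries at or below 27.7 TPM. The log2 change was -2.48 ± 0.26 (SE; adjusted p = 0.00079) in controls and -1.51 ± 0.26 (adjusted p = 0.0133) in deficient mice. Calr (chr8:84841850-84846934) encodes calreticulin, a lectin chaperone of glycoproteins. It was at 99.5 and 91.4 TPM in control pre-Baso, 90.6 and 75.6 in deficient pre-Baso, 36.4 and 20.1 in control basophils and 31.2 and 43.5 in deficient basophils, again with no overlap between populations. Calr fell by a log2 of 1.78 ± 0.27 (SE; adjusted p = 0.00329) in controls and 1.15 ± 0.27 (adjusted p = 0.0347) in deficient mice.

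Its membrane-bound relative calnexin, encoded by Canx, was at 54.97 and 44.0 TPM in control pre-Baso, 30.1 and 39.4 in deficient pre-Baso, 23.3 and 20.3 in control basophils and 21.3 and 30.7 in deficient basophils. The second deficient basophil library (30.7 TPM) was above the first deficient pre-Baso library (30.1 TPM), so the populations overlapped. Canx fell in controls (-1.14 ± 0.22, SE; adjusted p = 0.00911), and in deficient mice its change was -0.41 ± 0.22 (adjusted p = 0.268). Hyou1, a large nucleotide exchange factor for BiP, was at 5.13 and 6.41 TPM in control pre-Baso, 5.09 and 5.02 in deficient pre-Baso, 1.82 and 1.01 in control basophils and 2.25 and 4.99 in deficient basophils. Its second deficient basophil library had nearly the deficient pre-Baso level, while both control basophil libraries were below 2 TPM. Hyou1 fell in controls (-1.50 ± 0.30, SE; adjusted p = 0.00962) and was not called in deficient mice (-0.46 ± 0.30, adjusted p = 0.355).

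The abundant HSP90 paralog of the ER, Hsp90b1, was at 106 and 139.7 TPM in control pre-Baso, 114 and 128 in deficient pre-Baso, 76.7 and 83.4 in control basophils and 69.6 and 100 in deficient basophils. Its libraries did not overlap between populations, but its changes of -0.60 ± 0.21 (SE; adjusted p = 0.0698) in controls and -0.53 ± 0.21 (adjusted p = 0.136) in deficient mice were not called. The BiP cochaperones of the DnaJ family differed among themselves. Dnajb11 (ERdj3) was at 27.9 and 41.5 TPM in control pre-Baso, 32.4 and 36.1 in deficient pre-Baso, 8.21 and 21.3 in control basophils and 21.4 and 23.5 in deficient basophils. It fell in controls (-1.29 ± 0.37, SE; adjusted p = 0.0379), a call that ended in 10 of 18 alternatives. In the first control basophil library all 8.21 TPM of Dnajb11 were assigned to the longer transcript ENSMUST00000166487, and in the second 19.7 TPM to the shorter ENSMUST00000004574. Dnajc3, encoding P58IPK, fell in controls (-0.87 ± 0.23, SE; adjusted p = 0.0311) from 7.86 and 9.01 to 4.39 and 3.92 TPM. Dnajb9 (ERdj4), an acute target of XBP1, was at 4.40 to 10.9 TPM in pre-Baso and 5.94 to 8.07 TPM in basophils, overlapped and was not called.

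The disulfide enzymes form and rearrange the disulfide bonds of secreted proteins, and all but Ero1l fell in controls. P4hb (chr11:120560298-120573253) was at 92.1 and 98.5 TPM in control pre-Baso, 81.5 and 82.9 in deficient pre-Baso, 40.1 and 33.2 in control basophils and 41.3 and 56.7 in deficient basophils. All basophil libraries lay below all pre-Baso libraries. Its log2 change was -1.36 ± 0.18 (SE; adjusted p = 0.00192) in controls and -0.75 ± 0.18 (adjusted p = 0.0357) in deficient mice, where the call ended in 9 of 18 alternatives. For Pdia6 the libraries held 47.7 and 48.3 TPM in control pre-Baso, 47.9 and 50.7 in deficient pre-Baso, 21.0 and 15.2 in control basophils and 18.9 and 27.7 in deficient basophils. All pre-Baso libraries were at 47.7 to 50.7 TPM and all basophil libraries at or below 27.7 TPM. Pdia6 fell in controls (-1.38 ± 0.22, SE; adjusted p = 0.0036) and in deficient mice (-1.07 ± 0.22, adjusted p = 0.0211).

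Pdia3, the isomerase that partners calreticulin and calnexin, was at 68.9 and 77.8 TPM in control pre-Baso, 59.1 and 64.9 in deficient pre-Baso, 34.4 and 31.9 in control basophils and 34.5 and 47.9 in deficient basophils. It fell in controls (-1.12 ± 0.18, SE; adjusted p = 0.00413) with no overlap between populations, and its change in deficient mice was -0.60 ± 0.18 (adjusted p = 0.0718). Pdia4 fell in controls as well (-0.96 ± 0.20, SE; adjusted p = 0.012), from 20.2 and 26.3 to 13.0 and 9.95 TPM. Ero1l, the oxidase that recharges the isomerases and that hypoxia and CHOP can also induce, had a different pattern. Its level was 10.96 and 14.2 TPM in control pre-Baso, 9.14 and 11.3 in deficient pre-Baso, 13.5 and 16.4 in control basophils and 10.5 and 12.6 in deficient basophils. Those libraries overlapped, and neither change was called (0.24 ± 0.20 in controls, adjusted p = 0.426, and 0.17 ± 0.20 in deficient mice, adjusted p = 0.635).

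Manf and Creld2 encode small proteins of the ER lumen that are secreted under ER stress. Manf (chr9:106838312-106891979) was at 50.8 and 66.0 TPM in control pre-Baso, 64.2 and 42.1 in deficient pre-Baso, 16.4 and 20.2 in control basophils and 23.9 and 26.3 in deficient basophils. It fell in controls (-1.62 ± 0.23, SE; adjusted p = 0.00246) and in deficient mice (-1.02 ± 0.23, adjusted p = 0.0298), with no overlap between populations. Creld2 was at 42.6 and 62.4 TPM in control pre-Baso, 47.4 and 49.8 in deficient pre-Baso, 25.4 and 17.6 in control basophils and 24.8 and 32.5 in deficient basophils, also without overlap. Creld2 fell in controls (-1.25 ± 0.24, SE; adjusted p = 0.009), and its change in deficient mice was -0.75 ± 0.24 (adjusted p = 0.0842). Of all the falls in controls, those of Calr, Sdf2l1, Pdia3, Pdia6, P4hb and Manf were called in each of the 18 alternative analyses.

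**Figure D3:**
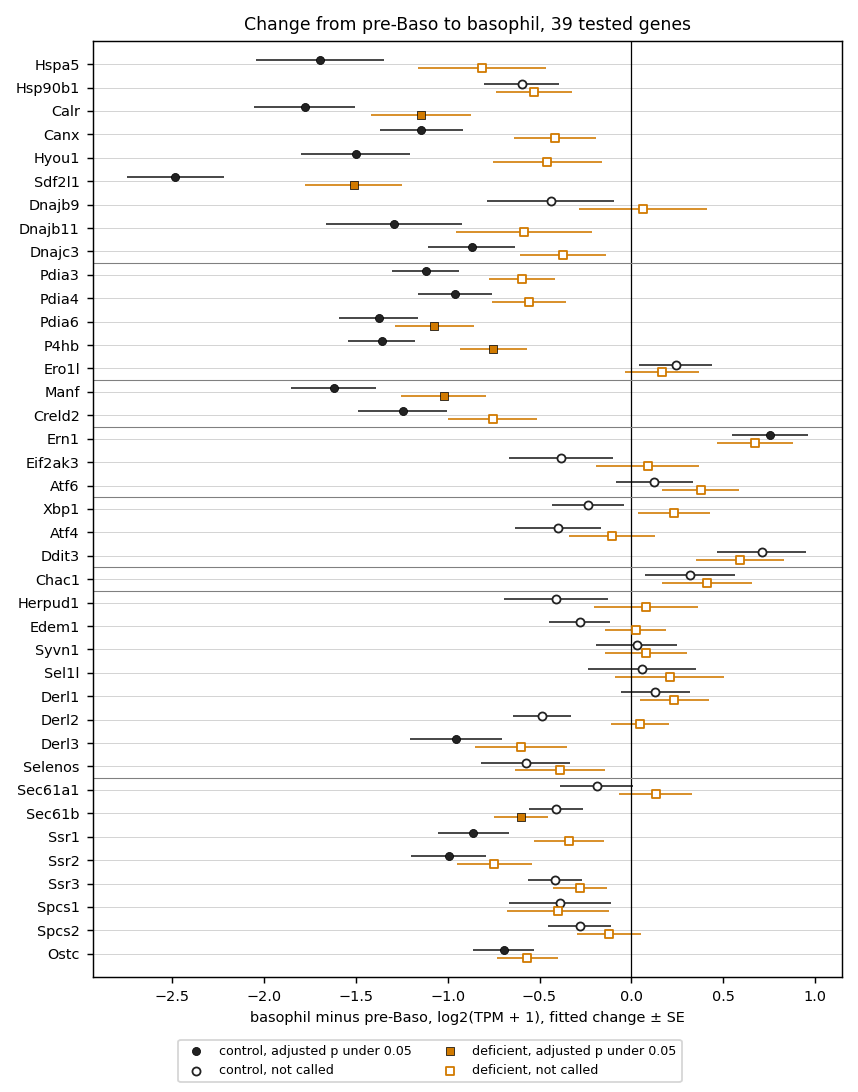
Fitted change from pre-Baso to basophils of 39 genes in control (circles) and deficient mice (squares), as a difference of log2(TPM + 1) with its SE; filled symbols have an adjusted p under 0.05. Falls reach -2.48 for Sdf2l1 in controls, and the sensors, factors and ERAD genes other than Derl3 lie nearer to 0.

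Of the 3 sensors and 3 transcription factors at the head of the response, 1 rose in controls, Ern1, and 0 fell. Ern1 (chr11:106394650-106487852), encoding the sensor and RNase IRE1, was at 1.08 and 1.57 TPM in control pre-Baso, 1.14 and 1.27 in deficient pre-Baso, 2.51 and 3.35 in control basophils and 2.23 and 2.81 in deficient basophils. Every basophil library was above every pre-Baso library. Ern1 rose in controls (0.75 ± 0.21, SE; adjusted p = 0.0332), a call that ended in 8 of 17 alternatives, and its change in deficient mice was 0.67 ± 0.21 (adjusted p = 0.0758). Eif2ak3, encoding PERK, was at 0.435 to 1.62 TPM and Atf6 at 1.65 to 3.02 TPM over the 8 libraries, both with overlap and without a call.

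Xbp1 (chr11:5520659-5525893) was at 23.5 and 33.0 TPM in control pre-Baso, 23.8 and 22.0 in deficient pre-Baso, 25.2 and 21.9 in control basophils and 29.5 and 24.8 in deficient basophils. The libraries of all groups overlapped, and its changes were -0.24 ± 0.20 (SE; adjusted p = 0.423; 95% interval -0.69 to 0.21) in controls and 0.23 ± 0.20 (adjusted p = 0.486; -0.22 to 0.68) in deficient mice. The interval in controls ends short of the changes of Calr (-1.78) and Sdf2l1 (-2.48), which are among the largest falls. It contains the median change of the 39 members (-0.49) and the change of Hsp90b1 (-0.60), so a fall of that size lies within its error. Atf4 mRNA was at 32.4 and 25.9 TPM in control pre-Baso, 26.0 and 16.4 in deficient pre-Baso, 24.1 and 19.4 in control basophils and 18.8 and 19.5 in deficient basophils, with overlap and without a call. Ddit3 (chr10:127290774-127296288), encoding CHOP, was at 13.2 and 21.6 TPM in control pre-Baso, 18.1 and 14.4 in deficient pre-Baso, 29.8 and 26.8 in control basophils and 22.4 and 27.4 in deficient basophils. All 4 basophil libraries were above all 4 pre-Baso libraries, but neither its change in controls (0.71 ± 0.24, SE; adjusted p = 0.0681) nor that in deficient mice (0.59 ± 0.24, adjusted p = 0.152) was called. Chac1, a glutathione-degrading enzyme induced by ATF4 and CHOP, was at 2.99 to 4.98 TPM in pre-Baso and 4.40 to 5.97 TPM in basophils and was not called.

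ER-associated degradation (ERAD) extracts misfolded proteins to the proteasome. Of its 8 members, Derl3, which the filter admitted through pre-Baso, was the 1 called lower in controls (-0.96 ± 0.25, SE; adjusted p = 0.0276). It was at 1.19 and 1.13 TPM in control pre-Baso, 0.976 and 1.83 in deficient pre-Baso, 0 and 0.236 in control basophils and 0.511 and 0.604 in deficient basophils, at or below 1.83 TPM throughout. Herpud1, which assembles the ERAD complex and is a sensitive target of the response, was at 46.6 and 50.00 TPM in control pre-Baso, 47.0 and 23.6 in deficient pre-Baso, 37.3 and 34.8 in control basophils and 39.5 and 31.5 in deficient basophils. The second deficient pre-Baso library, the one with the higher erythroid markers, was lowest and the groups overlapped, with changes of -0.41 ± 0.28 (SE; adjusted p = 0.334) in controls and 0.08 ± 0.28 (adjusted p = 0.89) in deficient mice. The ubiquitin ligase Syvn1, its partner Sel1l, the mannosidase-like Edem1, the channel subunits Derl1 and Derl2 and the selenoprotein Selenos overlapped between populations and were not called. Their control changes ranged from -0.58 ± 0.24 (SE; Selenos) to 0.13 ± 0.19 (Derl1).

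Genes for entry into the ER fell in part. Sec61b was at 179 and 206 TPM in control pre-Baso, 221 and 193 in deficient pre-Baso, 153 and 136 in control basophils and 126 and 145 in deficient basophils. It fell in deficient mice (-0.60 ± 0.15, SE; adjusted p = 0.0363), a call that ended in 10 of 18 alternatives (highest adjusted p = 0.214), and its change in controls was -0.41 ± 0.15 (adjusted p = 0.0772). The pore-forming subunit gene Sec61a1 overlapped between populations, at 19.5 to 28.6 TPM in pre-Baso and 18.98 to 24.8 TPM in basophils. Of the translocon-associated protein subunits, Ssr2 was at 57.1 and 69.9 TPM in control pre-Baso, 62.2 and 61.5 in deficient pre-Baso, 35.3 and 27.6 in control basophils and 30.9 and 43.1 in deficient basophils. It fell in controls (-0.99 ± 0.20, SE; adjusted p = 0.0109), and its libraries did not overlap between populations. Ssr1 (-0.86 ± 0.19, SE; adjusted p = 0.0147) and Ostc, a subunit of the oligosaccharyltransferase (-0.70 ± 0.17, adjusted p = 0.0194), fell in controls too. Ssr3 (-0.42 ± 0.15, adjusted p = 0.0783) and the signal peptidase genes Spcs1 (-0.39 ± 0.28, adjusted p = 0.355) and Spcs2 (-0.28 ± 0.17, adjusted p = 0.279) were not called.

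Of the 9 members with the ER stress element shown above, 7 were called lower in controls, all but Hsp90b1 and Syvn1, with a median log2 change of -1.14, where 10.0% of all genes tested fell. Without Derl3 the count was 6 of 8 (median -1.19). In deficient mice 2 of the 9 fell, Calr and Pdia6 (median -0.60), where 4.11% of all genes did. Without Derl3 the count in deficient mice was 2 of 8 (median -0.64). Members without the element also fell, among them Sdf2l1, P4hb and Pdia3. Of all members 17 of 39 fell in controls and 6 of 39 in deficient mice. Chaperones, of which 7 of 9 fell in controls, made up 5 of the 9 members with the element. A difference between members with and without it was not tested. Genes outside the members with the element numbered 24, of which 3 were expressed enough to be tested, too few for a comparison, and 0 of these were called in controls (the largest fall was -0.53), with 0 at an unadjusted p under 0.05.

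Neighbouring pathways were described by lists of further genes, whose counts stand beside the 10.0% of all genes tested that fell and the 12.6% that rose in controls. No test compared the lists with one another or with the members. Of 25 tested other folding genes 8 fell and 1, Sdf2, rose in controls, with a median of -0.37. Pdia5, 1 of the 8, was tested through its pre-Baso levels alone, and 2 other genes of the list reached 1 TPM in 2 libraries of only 1 population; without these 3 genes 7 of 22 fell. Ppib, the ER cyclophilin, was at 397 and 453 TPM in control pre-Baso, 474 and 419.5 in deficient pre-Baso, 173 and 160.4 in control basophils and 196 and 253 in deficient basophils, and its log2 change was -1.34 ± 0.15 (SE; adjusted p = 0.000984). Sil1, a second exchange factor for BiP, also fell in controls (-1.53 ± 0.19, adjusted p = 0.00154). Of 28 tested other genes of translocation, glycosylation and signal cleavage 11 fell and 0 rose (median -0.39). Among them was Rpn2, an oligosaccharyltransferase subunit, at 60.9 and 73.3 TPM in control pre-Baso, 60.4 and 50.3 in deficient pre-Baso, 21.8 and 16.3 in control basophils and 24.9 and 36.1 in deficient basophils and with a change of -1.77 ± 0.23 (SE; adjusted p = 0.00156). In deficient mice 2 of the 25 folding genes and 7 of the 28 translocation genes fell, against 4.11% of all genes tested, and 0 rose in either list, against 6.79%.

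Of 23 tested other ERAD genes 1 fell and 2 rose in controls (median 0.22): Edem3 fell (-1.91 ± 0.24, SE; adjusted p = 0.00145) and the lectin gene Os9 (0.66 ± 0.14, adjusted p = 0.0127) and the ubiquitin ligase gene Rnf139 rose. Of 28 tested genes of traffic between ER and Golgi 2 fell, Kdelr2 and Tmed10, and 0 rose (median -0.06). Of 17 tested cytosolic heat shock genes 3 fell, Stip1, Hsp90aa1 and Tcp1 (median -0.20), and of 14 mitochondrial chaperones and proteases 1 did, Trap1 (median -0.26), with 0 rising in either list. The 17 tested other sensors and factors had 3 that rose, Eif2ak1, Nfe2l2 and Ppp1r15a, and 1 that fell, Cebpb (median 0.06). Ppp1r15a, which encodes the stress-induced phosphatase subunit GADD34 and reverses the block on translation, changed by 0.87 ± 0.21 (SE; adjusted p = 0.0188).

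The 23 tested other ATF4 targets had changes in both directions. In controls Ddit4, Slc3a2 and Sesn2 were called higher and 5 fell (median -0.23). Sesn2 reached 1 TPM in 2 libraries only through basophils, so its call is no support for a rise. Without it and 3 further genes that reached 1 TPM in 2 libraries of only 1 population, 2 of 19 rose and 5 fell. Ddit4, a stress-induced inhibitor of mTORC1 that other signals also induce, was at 5.17 and 7.74 TPM in control pre-Baso, 8.27 and 5.90 in deficient pre-Baso, 41.1 and 33.8 in control basophils and 39.1 and 34.1 in deficient basophils. It was higher in every basophil library, with changes of 2.38 ± 0.23 (SE; adjusted p = 0.000561) in controls and 2.23 ± 0.23 (adjusted p = 0.00469) in deficient mice. The 5 that fell were Psat1, Phgdh, Psph, Shmt2 and Mthfd2, enzymes of serine synthesis and one-carbon metabolism, which dividing cells also use. Sdf2, Pdia5, Sesn2, Phgdh and Mthfd2 were named after their values were seen, to complete these counts. Shmt2 was at 5.65 and 5.42 TPM in control pre-Baso, 5.57 and 5.14 in deficient pre-Baso, 1.41 and 1.003 in control basophils and 2.88 and 2.80 in deficient basophils and changed by -1.57 ± 0.17 (SE; adjusted p = 0.000814) in controls.

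Between genotypes no member was called. In pre-Baso 0 of 39 members passed the threshold, against 0.0639% of all genes tested. There 1 member had an unadjusted p under 0.05, beside 548 of all 12511 genes. In basophils 0 of 39 passed, against 0.0560%, with 2, Sdf2l1 and Hyou1, at an unadjusted p under 0.05, beside 1065 of 12511 genes. Over both populations 0 of 39 passed, against 0.0879%, also with 2, Sdf2l1 and Derl2, at an unadjusted p under 0.05, beside 931 of 12511 genes. The median change from control to deficient was -0.15 in pre-Baso, beside -0.04 for all genes, and 0.15 in basophils, beside -0.01. In pre-Baso 34 of 39 changes were negative, where 43.3% of all genes tested had a positive change. In basophils 29 of 39 were positive, where 47.9% of all genes were. The pre-Baso median was -0.33 when the first control pre-Baso library was left out and 0.034 without the second, so its sign rests on the second control library.

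In pre-Baso both deficient libraries were below both control libraries for 11 of 39 members, against 19.3% of all genes, and above them for 0, against 11.2%. The lowest p was that of Derl2, at 8.32 and 7.15 TPM in control pre-Baso, 5.12 and 4.99 in deficient pre-Baso, 5.40 and 5.05 in control basophils and 5.36 and 5.14 in deficient basophils. Control pre-Baso libraries were its highest, and its change with genotype in pre-Baso was -0.53 ± 0.16 (SE; unadjusted p from limma = 0.00972, adjusted p = 0.991). In basophils both deficient libraries were above both controls for 10 members, against 17.2% of all genes, and below them for 1, Ero1l, against 21.4%. All 9 chaperones had a positive change there, with a median of 0.43, where 47.9% of all genes tested had a positive change. That of Sdf2l1 was 1.05 ± 0.26 (SE; 95% interval 0.45 to 1.66; limma unadjusted p = 0.00373, adjusted p = 0.288) and that of Hyou1 0.89 ± 0.30 (95% interval 0.21 to 1.57; limma unadjusted p = 0.0167, adjusted p = 0.428). For Hspa5 the interval in basophils was -0.29 to 1.30, so a rise of 1 log2 unit lies within its error.

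**Figure D4:**
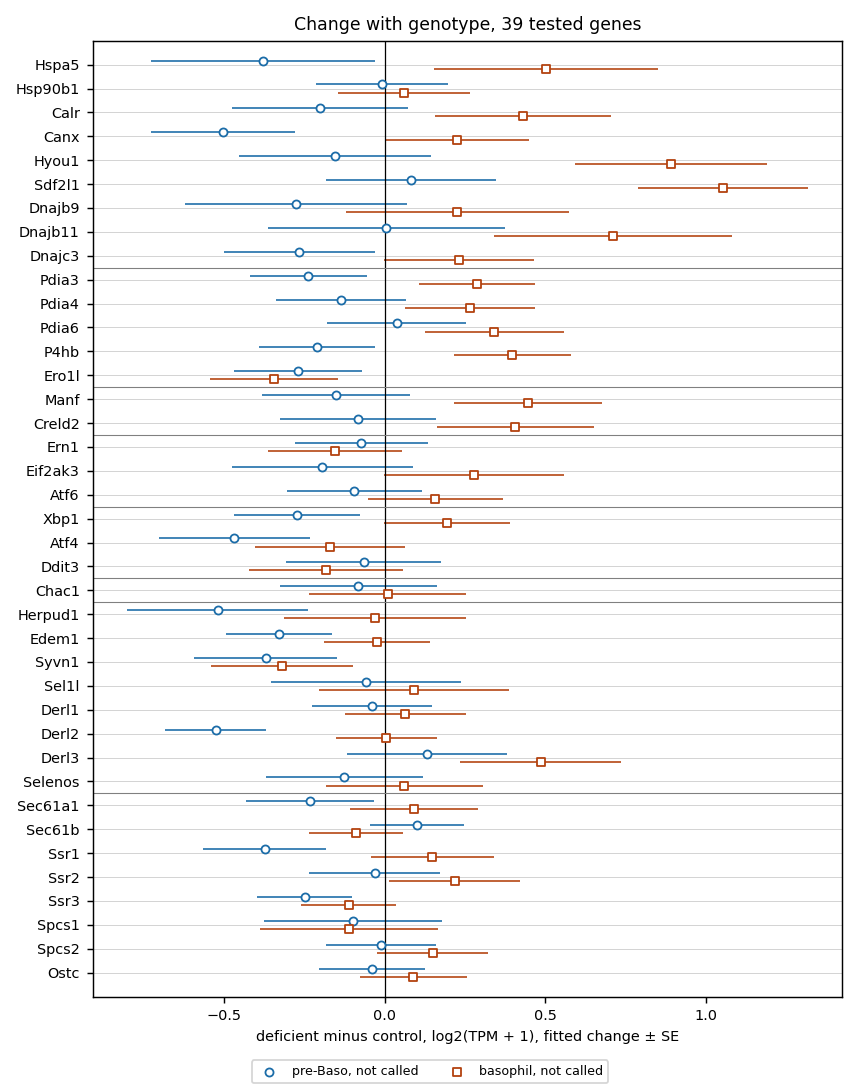
Fitted difference between deficient and control mice for 39 genes in pre-Baso (circles) and basophils (squares), in log2(TPM + 1) with its SE; open symbols are not called. Most circles lie at or left of 0 and most squares right of it, the farthest being Sdf2l1 at 1.05 in basophils.

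The change of population was smaller in deficient mice for each of the 17 members that fell in controls, and all 17 had a negative change there. Since these 17 were picked by their control values, that comparison leans towards a smaller change in the other genotype. Tested directly, the difference between the genotypes' changes was called for 0 of 39 members, against 0% of all genes tested (0 of 12511 by limma, 689 at an unadjusted p under 0.05). Of the members 5 had an unadjusted p under 0.05, namely Derl2, P4hb, Canx, Sdf2l1 (0.97 ± 0.37, SE; limma unadjusted p = 0.031, adjusted p = 0.897) and Hyou1 (1.04 ± 0.42, unadjusted p = 0.0372, adjusted p = 0.897). The median of this difference was 0.32, beside 0.03 for all genes, and 34 of 39 were positive, beside 53.3% of all genes. It shares its libraries with the genotype comparisons and adds no separate evidence to them.

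Proliferation markers differed between genotypes in basophils in the same direction: 19 of 19 changes were positive with a median of 0.86, beside 47.9% of all genes tested. Of these markers 1 was called, Birc5, against 0.0560% of all genes. Its log2 change was 2.61 (adjusted p = 0.023 by limma), and it was named after its values were seen. The sums of the 19 markers were 63.2 and 60.6 TPM in control and 109 and 193 TPM in deficient basophils. The second deficient basophil library, which had the higher of these sums, also had the highest chaperone sum among basophils (266.7 TPM, against 177 to 199 TPM in the other 3). The cargo sum without Prg2 and Mcpt8 was also highest there, at 11390 TPM against 4212 to 7155 TPM. Without it the median change of the members with genotype in basophils was 0.04, and without the first deficient library 0.24. The part of proliferating cells, of cargo load or of this library in the chaperone values was not tested.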

How the data were processed

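Reads were aligned with HISAT2 to mm10, per the submitters' processing notes (version not given in the sources used here), and transcripts of Ensembl release 101 were quantified with StringTie 2.1.4 without a strand option, per the file headers. The authors' deposited values are TPM, FPKM and coverage per transcript, with no read counts, so no counting interval can be given. TPM was summed per gene. Genes with at least 1 TPM in at least 2 libraries (12511 of 55487) were tested on log2(TPM + 1) with limma 3.58.1 in R 4.3.3. The fit had 1 mean per group over 8 libraries, 4 residual degrees of freedom and variance moderation by trend, and was tested on simulated data. P-values are two-sided and Benjamini-Hochberg adjusted within each of 6 contrasts. They set a difference of group means against the moderated spread between these libraries. Members and lists were chosen with earlier results of these data known. By rule, every member could be named, and of each other list up to 3 called genes per contrast with the smallest adjusted p, or the 3 most abundant of a marker or cargo list. Promoter windows came from RefSeq, and 34 members matched. Xbp1 exon 4 was read from GRCm38 transcripts. Alternatives were another scaling, FPKM, 2 pseudocounts, 2 filters, the compared groups alone, a replicate block, robust and untrended moderation and leaving out each library. Unstranded quantification cannot separate antisense genes.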

Additional observations from a re-analysis of the deposited data

How the results depend on the processing

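The counts of members that fell from pre-Baso to basophils depended on single libraries. In controls they were 7 to 16 (17 with all libraries) and in deficient mice 0 to 5 (6 with all), as each library was left out, and the count that rose in controls was 0 to 1. In controls the lowest count was without the second control pre-Baso library. The libraries of deficient mice gave 0, 1, 0 and 3 in the deficient comparison without the first and second pre-Baso and the first and second basophil library. The median change then ranged from -0.71 to -0.41 in controls, from -0.62 to -0.11 in deficient mice, and from -0.33 to 0.034 for genotype in pre-Baso. Among other settings, no filter on low values gave 8 falls and 0 rises in controls and 0 falls in deficient mice, where more genes enter the adjustment. With only the compared groups fitted there were 0 rises in controls and 2 falls in deficient mice. TPM rescaled to protein-coding genes gave 2 rises in controls, and 10 falls and 1 rise in deficient mice, and a filter of 5 TPM gave 10 falls in deficient mice. With a pseudocount of 5 the deficient median was -0.23. Except where an alternative tests fewer samples or more genes, the cause was not tested. No called member changed direction in any alternative, and no genotype comparison or difference between genotypes called a member in any. Correlations of deviations between same-numbered samples were -0.0544 to 0.202, the highest being that between control and deficient basophils. The first basophil library of each genotype also had the higher neutrophil and monocyte marker sums. Whether same-numbered basophil libraries shared a sort or preparation is not given in the labels and was not tested. With a replicate block 18 members fell in controls and 4 in deficient mice. Without read counts, the precision of genes near 1 TPM, such as Ern1 and Derl3, is not known.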

Other observations

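Ctsg, a protease of the granule cargo list that is made by granulocyte precursors, was at 745 and 841 TPM in control pre-Baso, 1857 and 1486 in deficient pre-Baso, 85.1 and 90.4 in control basophils and 375 and 592 in deficient basophils. Deficient libraries were above controls in each population, and the rise in basophils was called (2.41 ± 0.21, SE; limma adjusted p = 0.00505). It fell from pre-Baso to basophils in both genotypes. No explanation for this was tested.

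Mean read coverage per base of the main Xbp1 transcript, ENSMUST00000063084, was uneven along the gene: in the first control pre-Baso library it was 3.08 in exon 1 and 17.4 in exon 5.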
